A study of Mus musculus with 12 samples.

Results

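The nuclear genome encodes most of the protein subunits of the 5 complexes of oxidative phosphorylation, and 93 of the 24421 gene symbols in the deposited table carried the name of such a gene. They were taken by symbol alone: Ndufa, Ndufb, Ndufc, Ndufs and Ndufv for complex I, Sdha to Sdhd for complex II, Uqcr and Cyc1 for complex III, Cox4 to Cox8 for complex IV and Atp5 for complex V. Complex I held 45 of these genes, complex II held 4, complex III held 9, complex IV held 18 and complex V held 17. The name pattern also took 7 complex I assembly factors (Ndufaf1 to Ndufaf7), the supercomplex factor Cox7a2l, and Atp5s and Atp5sl, which are not subunits, so 83 of the 93 are subunits. Ndufa4 stands with complex I by its name and is known as a subunit of complex IV.

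Transcripts were measured by bulk RNA sequencing of 12 samples of the murine 425-ICC tumour, a model of intrahepatic cholangiocarcinoma, which arises from bile ducts within the liver. All were taken after 8 days of treatment, with 3 samples in each of 4 groups. Control tumours had received IgG, the GC group chemotherapy (the labels give only that abbreviation), the ICB group dual checkpoint blockade (CTLA-4 and PD1, as far as the title of the series tells), and the Combination group GC with dual ICB. Mouse strain, sex and age, the drugs' doses and the number of tumour clones are not given in the sources used here. The labels do not tie samples to animals, so p-values measure only the spread between these samples, which may be technical. Libraries are numbered as in their titles (Control 1 to Combination 3).

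The libraries differed in the tissue they held. A list of 18 hepatocyte markers made up between 0.0867% and 0.159% of all FPKM (fragments scaled to transcript length and to the total of mapped fragments) in Control, 0.233% and 1.13% in GC, and 0.172% and 0.566% in ICB. They made up 0.821%, 17.3% and 7.12% in Combination 1, 2 and 3, so every treated library lay above every Control library. A list of 15 small intestinal markers reached 1.03% in Combination 1 and at most 0.110% elsewhere, and 15 skeletal muscle markers reached 0.278% in Control 2 and 0.756% in GC 2, with at most 0.0197% elsewhere. The 8 macrophage markers made up 0.0622% in Control 1 against 0.663% and 1.07% in Control 2 and 3, and the ribosomal RNA precursor Rn45s made up 4.14% in ICB 2, 1.42% in ICB 3 and between 0.159% and 0.689% elsewhere. The list of 10 biliary and tumour markers summed to between 0.111% and 1.43% of FPKM, and in Combination against Control 9 of 10 were positive with a median of 1.73 on the log2(FPKM + 1) scale and 1 called by limma. Of the defining biliary markers, Krt19 was listed at 0 in Control 2 and Control 3, Krt7 was at most 5.0003 FPKM, and Epcam was at most 5.80 FPKM outside Combination 1 (126 FPKM). In bulk tissue, fewer cells of a type and less RNA per cell cannot be told apart. FPKM summed to between 547146 and 660067 per library, read counts could not be recovered from the values, and sequencing depth is therefore unknown.

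The complexes sit in the inner mitochondrial membrane. Complex I (NADH dehydrogenase) and complex II (succinate dehydrogenase) pass electrons from NADH and succinate to coenzyme Q, complex III (cytochrome bc1) passes them on to cytochrome c, and complex IV (cytochrome c oxidase) reduces oxygen. Complexes I, III and IV pump protons, and complex V (ATP synthase) lets them back to make ATP. Complexes I, III, IV and V also contain subunits encoded by mitochondrial DNA, which were not analysed here. Hepatocytes and striated muscle are rich in mitochondria, and several complex IV subunits have separate genes for muscle, for testis or for low oxygen.

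For some subunits several genes encode alternative forms. The sequences before their starts are shown for some of the forms whose levels differed between libraries. Atp5g1, Atp5g2 and Atp5g3 all encode the c subunit, the ring that turns in ATP synthase, with different import sequences in front of the same mature protein. Each line gives the 250 bases before the RefSeq transcript start (build GRCm38.p6), written 5′ to 3′ on the strand of the gene. Capitals mark a match to a motif named after the lines.
Atp5g1 (chr11:96075632-96075881, reverse strand): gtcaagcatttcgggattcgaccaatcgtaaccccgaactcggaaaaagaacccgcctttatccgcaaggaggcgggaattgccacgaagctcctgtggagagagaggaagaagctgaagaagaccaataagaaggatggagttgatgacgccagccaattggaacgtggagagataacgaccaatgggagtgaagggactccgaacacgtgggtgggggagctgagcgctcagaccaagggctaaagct
Atp5g2 (chr15:102671048-102671297, reverse strand): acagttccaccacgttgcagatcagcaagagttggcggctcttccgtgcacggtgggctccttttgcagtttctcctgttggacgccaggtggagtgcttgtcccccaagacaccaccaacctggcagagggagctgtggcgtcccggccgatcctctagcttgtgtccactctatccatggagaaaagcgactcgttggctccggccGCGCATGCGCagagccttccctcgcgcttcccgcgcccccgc
Atp5g3 (chr2:73911327-73911576, reverse strand): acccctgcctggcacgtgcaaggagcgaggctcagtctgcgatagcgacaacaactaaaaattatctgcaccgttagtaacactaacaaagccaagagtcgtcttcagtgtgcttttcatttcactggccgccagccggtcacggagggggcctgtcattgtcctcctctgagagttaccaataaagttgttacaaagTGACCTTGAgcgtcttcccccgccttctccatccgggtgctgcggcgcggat

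The next set shows the muscle form of the complex IV subunit 7a (Cox7a1) beside its general form (Cox7a2), and the general form of subunit 8 (Cox8a) beside its muscle form (Cox8b). They are shown because the muscle forms were high in only a few libraries.
Cox7a1 (chr7:30183921-30184170, forward strand): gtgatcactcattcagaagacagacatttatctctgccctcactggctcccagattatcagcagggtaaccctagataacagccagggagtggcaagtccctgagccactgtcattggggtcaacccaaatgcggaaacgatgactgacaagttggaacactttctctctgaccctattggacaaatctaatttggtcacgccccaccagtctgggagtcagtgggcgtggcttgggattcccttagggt
Cox7a2 (chr9:79759854-79760103, reverse strand): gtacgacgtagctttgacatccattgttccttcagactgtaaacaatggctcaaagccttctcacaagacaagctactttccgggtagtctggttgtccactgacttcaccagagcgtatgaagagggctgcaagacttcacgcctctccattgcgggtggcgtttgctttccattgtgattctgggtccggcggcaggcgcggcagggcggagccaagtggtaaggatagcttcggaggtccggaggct
Cox8a (chr19:7217617-7217866, reverse strand): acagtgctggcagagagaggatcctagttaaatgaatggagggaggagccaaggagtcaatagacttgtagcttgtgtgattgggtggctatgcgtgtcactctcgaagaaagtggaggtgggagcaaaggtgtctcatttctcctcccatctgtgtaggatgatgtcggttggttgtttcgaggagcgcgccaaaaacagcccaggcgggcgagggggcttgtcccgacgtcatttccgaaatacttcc
Cox8b (chr7:140900447-140900696, reverse strand): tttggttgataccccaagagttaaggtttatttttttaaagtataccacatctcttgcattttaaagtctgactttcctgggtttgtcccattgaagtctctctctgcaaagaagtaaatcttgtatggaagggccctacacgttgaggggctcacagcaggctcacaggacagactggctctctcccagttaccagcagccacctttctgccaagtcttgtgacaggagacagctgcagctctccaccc

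These printed windows held between 11 and 19 CG dinucleotides for the 3 c subunit genes, Cox7a2 and Cox8a, 4 for Cox7a1 and 1 for Cox8b. RefSeq promoters were found for 73 of the 93 genes, and the 300 bases from 250 before to 50 after the start held a median of 19 CG dinucleotides in them and of 8 in all 27025 genes of that table. Motifs were searched as letters on both strands of that window. The NRF1 motif, searched as GCGCNTGCG, occurred in 25 of the 73 (34.2%) and in 7.12% of all genes of that table, and the ETS motif CCGGAAG in 17 (23.3%) and 9.93%. The YY1 motif AAGATGGC occurred in 9 (12.3%) and in 3.19% of all genes of that table, and the ERRA motif TCAAGGTCA in 2 (2.74%) and 0.466%. The genes of that table were not matched to the 73 for CG content or for being expressed. A gene was counted once per motif, and matches on both strands or of different motifs were allowed to overlap. Among the printed genes Atp5g2 had the NRF1 letters on both strands, overlapping, from 42 bases before its start, and Atp5g3 had the ERRA letters on the opposite strand from 52 bases before. Atp5g3 also had the NRF1 letters after its start, outside the printed stretch and within the 300 bases searched. Cox8a had the ETS letters from 5 bases before its start, running past the printed stretch and so left unmarked, and again from base 33 after it. No match to the 4 motifs was found in the windows of Atp5g1, Cox7a1, Cox7a2 and Cox8b.

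Most of the genes were among the most abundant transcripts of the tumours. The mean over the 12 libraries was over 100 FPKM for 57 of 93 genes, and 69 of the 91 tested genes (those with a mean of at least 1 FPKM) lay in the top 10% of the 12765 genes tested. On the FPKM scale, which is per length, Cox4i1, the general form of complex IV subunit 4, was highest with a mean of 1143, followed by the ATP synthase epsilon subunit Atp5e at 730 and the complex III hinge protein Uqcrh at 711. The 2 highest genes were Ndufa7 (519) and Ndufa4 (475) in complex I, Sdhd (145) and Sdhb (129) in complex II, Uqcrh and Uqcr10 (499) in complex III, Cox4i1 and Cox6b1 (486) in complex IV, and Atp5e and Atp5j2 (523) in complex V. The complex I assembly factors were far lower, with means from 4.27 (Ndufaf4) to 36.7 (Ndufaf2). Ndufs5, a subunit of complex I, stood at only 0.967 to 2.41 FPKM over the libraries, and Atp5s had a mean of 3.41. The testis forms Cox7b2 and Cox8c were listed at 0 in all 12 libraries and were not tested. Several subunit genes have near-identical processed copies in the mouse genome, and how reads matching such copies were counted is not given in the sources used here, so levels of single genes are uncertain to that extent.

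Levels varied little within groups. The median within-group SD of log2(FPKM + 1) was 0.288 over the 91 tested genes and 0.435 over all genes tested. Restricted to a mean of at least 100 FPKM it was 0.300 over 57 of these genes and 0.509 over 795 genes. The ratio of the highest to the lowest library over all 12 libraries, groups pooled, was under 2 for 37 of the 87 genes that had no 0 and had a median of 2.06, and the 6 other genes were listed at 0 in at least 1 library.

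Summed over all 93 genes, oxidative phosphorylation transcripts made up 2.28%, 2.60% and 3.11% of FPKM in Control 1, 2 and 3. They made up 3.13%, 3.29% and 3.32% in GC, 2.74%, 2.64% and 2.64% in ICB, and 3.81%, 2.89% and 2.84% in Combination. All GC libraries thus stood above all Control libraries, while ICB lay inside the Control range and Combination overlapped it. Group means were 2.66% ± 0.416 (SD, n = 3) in Control, 3.25% ± 0.0990 in GC, 2.67% ± 0.0536 in ICB and 3.18% ± 0.546 in Combination.

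Complexes II and III were those whose sums in Combination did not overlap Control. Complex III transcripts took 0.289%, 0.316% and 0.379% of FPKM in Control, and 0.457%, 0.463% and 0.468% in GC. They took 0.362%, 0.388% and 0.393% in ICB and 0.540%, 0.444% and 0.409% in Combination. The GC and Combination libraries all lay above every Control library. Complex II took 0.0486%, 0.0712% and 0.0697% in Control and 0.0996%, 0.104% and 0.0820% in Combination, again without overlap. In GC (0.0675%, 0.0859% and 0.0791%) and ICB (0.0642%, 0.0486% and 0.0527%) the complex II share overlapped Control. Complex IV reached 1.02% in Combination 1 and only 0.633% and 0.656% in Combination 2 and 3, against 0.642%, 0.643% and 0.792% in Control. These are sums over genes chosen by name and carry no test.

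**Figure D1:**
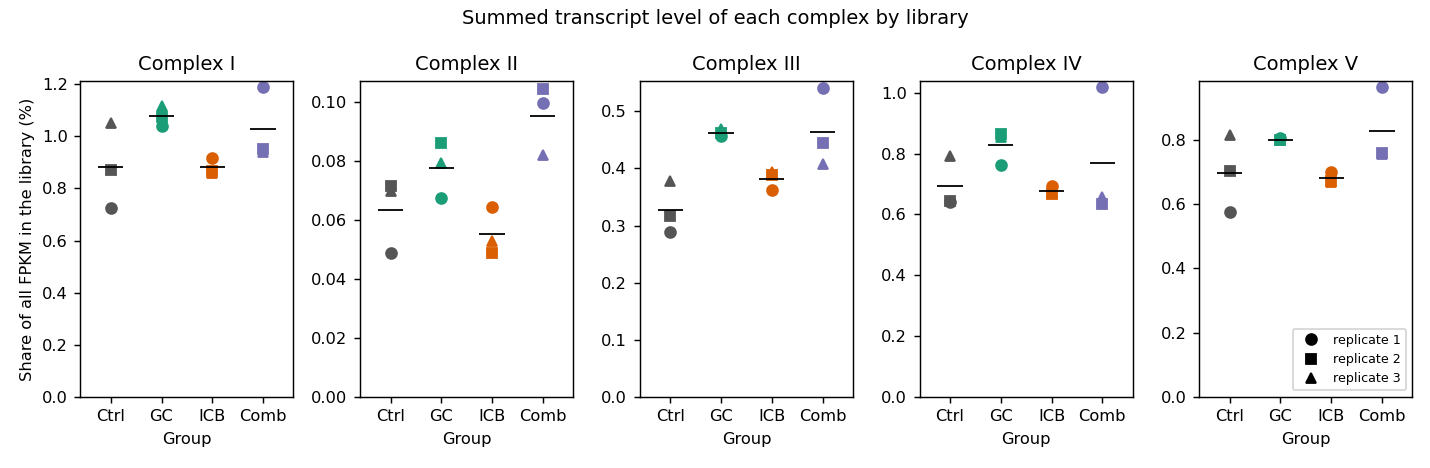
Summed FPKM of the genes of each complex as a percentage of all FPKM in the library (vertical axis, from 0) for the 4 groups (Ctrl is Control, Comb is Combination), with 1 point per library, marker shape for the replicate number and a line at the group mean of 3. The 3 GC libraries lie close together for complexes I, III and V, Combination 1 is the highest point for complexes I, III, IV and V, and for complex II all Combination points lie above all Control points.

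Single libraries stood apart in many genes at once. Combination 1 was the highest of the 12 libraries for 40 of the 91 tested genes and Control 3 for 15. Control 1 was the lowest for 35, Combination 2 for 18 and Control 2 for 14. Combination 1 is the library with intestinal markers and Combination 2 the one with most hepatocyte markers. The part of these tissues in the values below was not tested. Fits without those libraries, or with the hepatocyte marker mean as a covariate, are given beside some values. Every treated library lay above every Control library in hepatocyte markers, so the covariate fit cannot fully separate these markers from treatment.

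The comparison of GC with Control asks what chemotherapy alone did. Of the 91 tested genes 74 stood higher in GC and 17 lower on the log2(FPKM + 1) scale, on which every difference below is given, against 58.1% higher among all genes tested. The median difference was 0.28, and 0.09 over all genes. No gene passed limma's test at an adjusted p of 0.05 in either direction (background 0.00783% higher and 0% lower), while 9 had an unadjusted p under 0.05 with a higher value (background 8.2%) and 0 with a lower one (1.66%). All 3 GC libraries lay above all 3 Control libraries for 18 genes (background 18.6%) and below them for 1 gene, Atp5b (9.29%). The upward counts by unadjusted p and by separated libraries were thus near the background, and the downward ones were below it. Under TMM (trimmed mean of M-values) factors 61 of 91 were higher with a median of 0.17, and under quantile normalization 56 with a median of 0.09. Markers of other cell types stood higher in GC as well: 18 of 18 hepatocyte markers were positive with a median of 4.72, 13 of them at an unadjusted p under 0.05, and the medians were 1.41 for 8 fibroblast and 0.85 for 8 macrophage markers, with 0 called by limma in these lists. Their part in the GC values was not tested.

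Ndufb7, an accessory subunit of the membrane arm of complex I, stood at 133, 127 and 165 FPKM in Control and 226, 248 and 265 in GC. The GC libraries did not overlap Control, and the difference of 0.80 ± 0.27 (SE) had a limma adjusted p of 0.318, and of 0.0477 without Combination 1, which enters only the estimate of the spread. The fit without that library called 1.42% of all genes higher. Ndufa3, another accessory subunit, ran from 96.2, 142 and 192 in Control to 237, 246 and 284 FPKM in GC, also apart (0.88 ± 0.31, limma adjusted p = 0.361). Uqcr11, a small subunit of complex III, stood at 137, 215 and 294 FPKM in Control and 322, 337 and 358 in GC. Those groups did not overlap either (0.72 ± 0.29, limma adjusted p = 0.428), and the GC libraries were much closer to each other than the Control libraries. Ndufaf3, an assembly factor of complex I, had 4.62, 4.41 and 5.16 FPKM in Control and 7.31, 8.30 and 9.66 in GC, a difference of 0.71 ± 0.20 with a limma adjusted p of 0.222.

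The median difference was 0.32 for complex I, 0.26 for complex II, 0.41 for complex III, 0.33 for complex IV and 0.06 for complex V. In complex I the largest differences were those of Ndufa3 and Ndufb7 and the lowest were −0.23 (Ndufa10) and −0.19 (Ndufb11). All 4 complex II genes were positive, from 0.18 for the flavoprotein Sdha to 0.39 for the membrane anchor Sdhd. In complex III the range went from −0.12 for the core protein Uqcrc2 to 0.72 for Uqcrb and Uqcr11. The largest value in complex IV belonged to Cox6b2, the testis form of subunit 6b (2.37 ± 0.62, limma adjusted p = 0.204), followed by Cox5a and Cox7a1 at 0.62. In complex V, Atp5j and Atp5e stood at 0.62 and 0.53, while the catalytic core was level or lower: the alpha subunit Atp5a1 at −0.03, the beta subunit Atp5b at −0.23 and the gamma subunit Atp5c1 at −0.33. Atp5s stood at −0.41. The sign for complex V depended on scaling, with medians of −0.05 under TMM factors and −0.08 under quantile normalization. Without Control 1 the median over all 91 genes was 0.13, and without Control 3 it was 0.40.

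**Figure D2:**
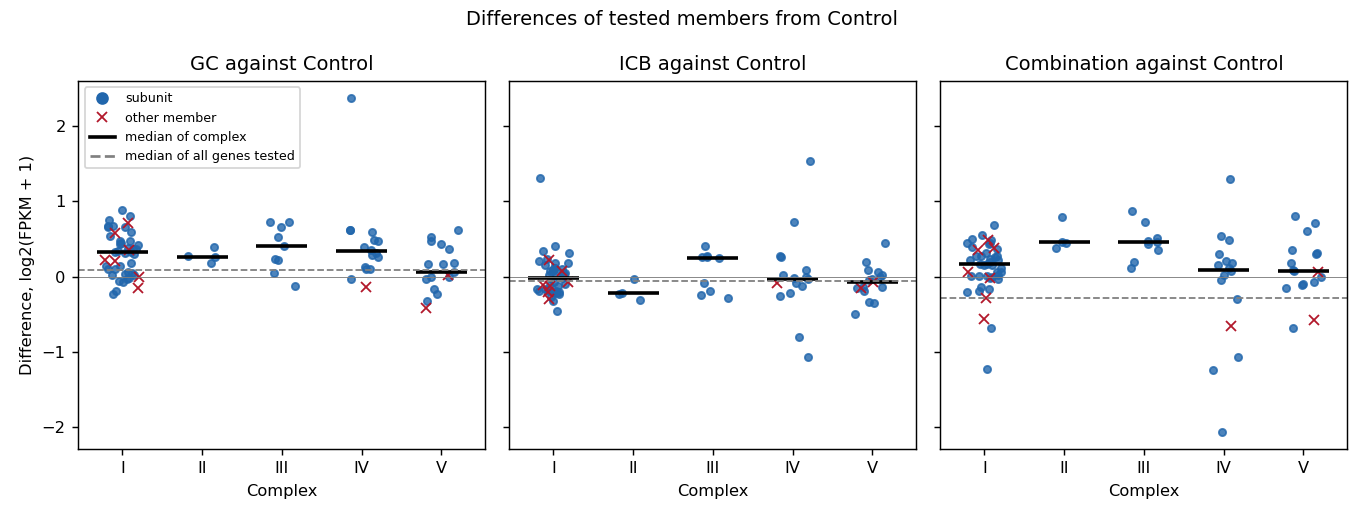
Difference from Control on the log2(FPKM + 1) scale (vertical axis) for each of the 91 tested genes, by complex and for the 3 treated groups. Circles are subunits, crosses are assembly factors and other non-subunits, black bars are the medians of a complex, and the dashed line is the median of all genes tested (0.09, −0.06 and −0.29 from left to right). No point passed limma's test.

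ICB alone left the genes near Control. Of 91, 38 stood higher than Control (background 40.9%) and the median difference was −0.05, against −0.06 over all genes. No gene passed limma's test in either direction, and no gene of the whole table did (background 0% and 0%). An unadjusted p under 0.05 was reached by 1 gene with a higher value, Cox6b2 (1.29%), and by 0 with a lower one (0.454%). The ICB libraries lay above Control for 3 genes (4.65%), Cox6b2, Ndufaf3 and Ndufb7, and below it for 6 (4.67%), among them Atp5b, Atp5d, Atp5g3, Ndufa10 and Uqcrfs1.

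Medians by complex were −0.02, −0.22, 0.25, −0.03 and −0.07 for complexes I to V. In complex I the highest values were 1.31 ± 0.74 for Ndufa4l2, a relative of Ndufa4 known as a target of the hypoxia response, and 0.41 for Ndufa2. The lowest were −0.46 for Ndufa10 and −0.33 for Ndufb11. Complex II ran from −0.31 (Sdha) to −0.03 (Sdhd), and complex III from −0.28 for the core protein Uqcrc1 and −0.25 for the Rieske iron-sulfur protein Uqcrfs1 to 0.28 for Uqcr11 and 0.41 for Uqcrh. Complex IV ran from −1.07 (Cox8b) and −0.80 (Cox6a2) to 0.73 (Cox4i2) and 1.53 (Cox6b2). In complex V the beta subunit Atp5b stood at 353, 437 and 415 FPKM in Control and 346, 263 and 250 in ICB. Those groups did not overlap, and the difference of −0.50 ± 0.23 had a limma adjusted p of 1. Atp5a1 was next lowest at −0.35, and Atp5e (0.45) and Atp5j (0.19) were highest. Without Control 1 the median over the 91 genes was −0.20, without Control 3 it was 0.12, and under TMM factors it was 0.03.

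Most of these genes had higher values in Combination than in Control, while most genes of the table had lower ones. Of 91 genes 66 were higher (background 33%), and the median difference was 0.18 against −0.29 over all genes. No gene passed limma's test (background 3.55% higher and 0.4% lower). An unadjusted p under 0.05 was reached by 7 with a higher value (11.7%) and by 1, Atp5g2, with a lower one (14.6%). Libraries were separated for 12 genes upward (9.74%) and 2 downward (13.2%), Atp5s and Cox6a2. The median of all genes depends on scaling: it moved to −0.001 under TMM factors, and the median of these genes then stood at 0.52. Relative to all genes, the 91 stood 0.47 higher as deposited, 0.49 after rescaling to equal totals, 0.52 under TMM factors and 0.34 under quantile normalization. Hepatocyte markers were higher in this contrast too, with 15 of 18 called by limma and a median difference of 7.15. With the hepatocyte marker mean as a covariate the difference between the medians was 0.36. Without Combination 2 and 3, which leaves 1 Combination library, it was 0.47, and it was 0.28 without Combination 2 alone. With sample weights it was 0.16, and the median of the 91 genes was then −0.04. The median over the 91 genes itself was 0.04 without Combination 1, 0.26 without Combination 3, 0.06 without Control 1 and 0.33 without Control 3.

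Complexes II and III held the highest medians, 0.45 and 0.46, and all 4 and all 9 of their genes were positive under each of the 4 scalings. Medians for complexes I, IV and V were 0.17, 0.09 and 0.07, and those of IV and V turned to −0.01 and −0.06 under quantile normalization. Sdha, the flavoprotein that oxidises succinate (chr13:74322254-74350280, GRCm38), stood at 38.8, 47.6 and 46.8 FPKM in Control. It stood at 58.7, 115 and 69.2 FPKM in Combination, with the highest value in the library richest in hepatocyte markers. The groups did not overlap (0.80 ± 0.29, limma adjusted p = 0.126). Without Combination 1 the difference was 0.99 with a limma adjusted p of 0.0293, in a fit that called 11% of all genes higher. Without Combination 2 the difference was 0.52. Over all alternatives it ran from 0.28, with the hepatocyte marker mean as a covariate, to 1.14. The other complex II genes stood at 0.46 (the iron-sulfur protein Sdhb), 0.45 (the anchor Sdhc) and 0.37 (Sdhd). In complex III the highest were Uqcrb (0.88 ± 0.36, limma adjusted p = 0.156) and Uqcr11 (0.73 ± 0.29, limma adjusted p = 0.149), and the lowest were Uqcr10 at 0.19 and Uqcrh at 0.11. Cytochrome c1, encoded by Cyc1, ran from 76.8, 101 and 103 FPKM in Control to 148, 126 and 112 in Combination, without overlap (0.46 ± 0.22, limma adjusted p = 0.205).

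The other complexes were mixed. Complex I ran from −1.23 (Ndufa4l2) and −0.68 (Ndufa7, the most abundant complex I transcript) to 0.55 (Ndufa1) and 0.69 (Ndufa3). Complex IV ran from −2.07 (Cox6a2) and −1.24 (Cox4i2) to 0.54 (Cox5a) and 1.30 (Cox6b2). Cox4i1, the most abundant of all, had 1383, 846 and 1290 FPKM in Control and 1571, 655 and 788 in Combination, with the 2 lowest values in the libraries rich in hepatocyte markers (−0.30 ± 0.34, limma adjusted p = 0.565). Cox7a2l, which joins complexes III and IV in supercomplexes, stood at 227, 141 and 151 FPKM in Control and 157, 74.5 and 104 in Combination (−0.66 ± 0.30, limma adjusted p = 0.193). Its groups overlapped through Combination 1, and without that library the value was −0.94 with a limma adjusted p of 0.0260. That fit called 13.8% of all genes lower. In complex V, Atp5a1 was 0.35, the delta subunit Atp5d 0.31 and the coupling factor Atp5j 0.71, each with all Combination libraries above Control, and Atp5s was −0.58.

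The c subunit genes parted in Combination. Atp5g1 (chr11:96068852-96075670, GRCm38) stood at 77.2, 76.1 and 80.5 FPKM in Control, 74.0, 72.2 and 127 in GC, 88.8, 72.9 and 81.8 in ICB, and 156, 141 and 116 in Combination. Combination lay above Control and ICB and overlapped GC through GC 3. The difference from Control was 0.80 ± 0.26 with a limma adjusted p of 0.0999, the smallest of the 91 genes in that contrast.

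Atp5g2 (chr15:102662864-102672352) went the other way, with 216, 156 and 215 FPKM in Control and 168, 84.6 and 121 in Combination. The groups overlapped through Control 2 and Combination 1, and the difference of −0.69 ± 0.28 had a limma adjusted p of 0.151. It was −0.93 with a limma adjusted p of 0.0159 without Combination 1, −0.81 with 0.0478 under quantile normalization, and 0.06, the opposite sign, with the hepatocyte marker mean as a covariate. The share of all genes called lower was 13.8% without Combination 1 and 3.22% under quantile normalization. Atp5g3 (chr2:73908447-73911326), the most abundant of these 3 genes, stood at 224, 223 and 293 FPKM in Control and 448, 382 and 303 in Combination. It did not overlap (0.61 ± 0.25, limma adjusted p = 0.165).

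As a ratio of FPKM, Atp5g1 over Atp5g2 was 0.929, 1.66 and 0.959 in Combination. It ran from 0.357 to 0.488 in Control, from 0.428 to 0.694 in GC and from 0.375 to 0.499 in ICB, so each Combination library lay above the 9 others. Atp5g2 made up 37.5% ± 3.88 (SD, n = 3) of the summed FPKM of these genes in Control, 29.1% ± 3.11 in GC, 38.8% ± 1.98 in ICB and 19.4% ± 4.70 in Combination. The ratio was chosen after its values were seen and carries no test. The genes share part of their coding sequence, and how reads that match more than 1 of them were counted is not given in the sources used here. The highest ratio was in Combination 2, the library with most hepatocyte markers, and the ratio in Combination 1, with 0.821% of FPKM in those markers, was close to that in Combination 3, with 7.12%. The part of other tissues in the ratio was not tested.

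**Figure D3:**
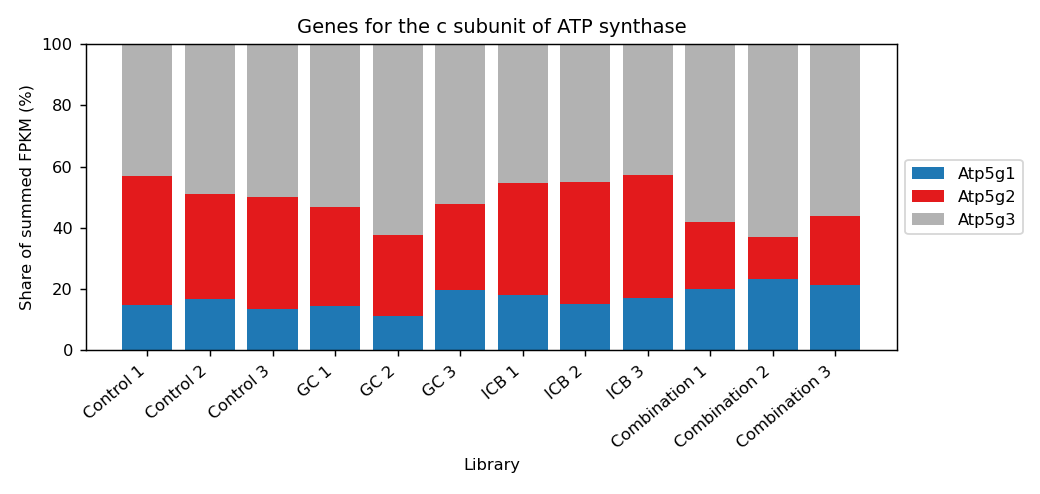
Share of the summed FPKM of the 3 c subunit genes of ATP synthase taken by each gene (stacked bars, 0 to 100%) in the 12 libraries. The Atp5g2 band is 34.3% to 41.8% in Control and 13.9% to 22.4% in Combination, and the Atp5g1 band is 13.7% to 16.7% in Control and 20.2% to 23.1% in Combination.

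Blockade added to chemotherapy was asked by comparing Combination with GC, which uses no Control library. Here 31 of 91 genes were higher (background 23.8%), with a median of −0.12 against −0.36 over all genes. None passed limma's test (0.642% higher and 0.0235% lower), and 2 genes in each direction had an unadjusted p under 0.05 (6.1% and 10.4%). Separated libraries were found for 8 genes upward (4.16%), Atp5a1, Atp5b, Cyc1, Ndufa10, Ndufaf1, Sdha, Uqcrc2 and Uqcrfs1, and for 4 downward (14.2%), Ndufaf5, Ndufaf7, Ndufs5 and Ndufv2. All 16 tested complex IV genes had negative values as deposited, from −2.46 to −0.03, but 4 were positive after rescaling to equal totals, 2 under quantile normalization and 11 under TMM factors (median 0.20). At the deposited scale the medians of complexes II and III were 0.19 and 0.15. The overall median changed sign to 0.35 under TMM factors, so its direction depends on scaling. Without Combination 1 it was −0.31 and 8 genes fell (Atp5g2, Cox7a1, Cox7a2l, Ndufa11, Ndufa2, Ndufaf5, Ndufb3 and Ndufb7) by limma with adjusted p from 0.0242 to 0.0456, against 14.9% of all genes called lower in that fit. Without Combination 2 it was −0.04.

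Chemotherapy added to blockade, Combination against ICB, gave the most separated genes. Of 91 genes 65 were higher (35.3%), with a median of 0.21 against −0.21 over all genes. None passed limma's test (2.05% higher and 0.188% lower), and 13 had an unadjusted p under 0.05 with a higher value (10.8%) and 3 with a lower one (9.67%). All Combination libraries lay above all ICB libraries for 30 genes (9.47%) and below them for 5 (10.1%), Atp5g2, Cox4i2, Cox6a2, Ndufa4l2 and Ndufa7. The 30 held all 4 complex II genes, 6 of the 9 complex III genes (Cyc1, Uqcr11, Uqcrb, Uqcrc1, Uqcrc2 and Uqcrfs1) and 6 complex V genes, among them Atp5a1, Atp5b and Atp5d of the catalytic part.

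Sdha had the smallest p in this contrast. It stood at 44.1, 29.7 and 33.7 FPKM in ICB against 58.7, 115 and 69.2 in Combination, and the difference was 1.11 ± 0.29 with a limma adjusted p of 0.0772. Without Combination 1 it was 1.31 with a limma adjusted p of 0.0105, in a fit that called 10.1% of all genes higher. Uqcrfs1, which hands electrons to cytochrome c1, stood at 64.7, 66.8 and 62.0 FPKM in ICB and 119, 128 and 86.4 in Combination. It did not overlap (0.76 ± 0.24, limma adjusted p = 0.118). Medians were 0.22, 0.68, 0.45, 0.05 and 0.20 for complexes I to V, and all 4 complex II genes were positive under each of the 4 scalings. Without Combination 1 the median over the 91 genes was 0.05, and Atp5g2 (−0.89) and Cox7a2l (−0.85) fell, with limma adjusted p of 0.0235 and 0.0457. That fit called 5.94% of all genes lower.

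The interaction asks whether the GC difference was the same with and without blockade. None of the 91 genes passed limma's test (background 0.0157% positive and 0% negative), and 4 positive (2.79%) and 3 negative (5.3%) genes had an unadjusted p under 0.05. The positive ones were Atp5b (0.90 ± 0.33), Ndufa10 (0.75 ± 0.30), Sdha (0.94 ± 0.41) and Atp5a1 (0.73 ± 0.33), and the negative ones Ndufa4l2 (−3.13 ± 1.04), Cox6b2 (−2.61 ± 0.87) and Ndufa2 (−1.04 ± 0.47), with limma adjusted p from 0.476 to 0.609. Positive values were found for 36 of 91 (31.8%). The median was −0.10 over these genes and −0.26 over all genes, and it was 0.27 under TMM factors, 0.006 after rescaling to equal totals and 0.09 without Control 1. In the test for any difference among the 4 groups 0 of 91 genes passed (1.83%) and 7 had an unadjusted p under 0.05 (17.1%), with Sdha first at a limma adjusted p of 0.204. Without Combination 1, Cox6b2 (−3.18) and Ndufb7 (−1.02) passed in the interaction, with limma adjusted p of 0.0458 and 0.0378, and Sdha and Ndufb7 passed in the test for any difference (0.0440 and 0.0309). That fit called 6.36% of all genes in the interaction and 14.1% in the test for any difference.

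Several genes were high in a few libraries only. Cox6a2, the heart and skeletal muscle form of subunit 6a, stood at 13.9 FPKM in Control 2 and 59.3 in GC 2. It was at most 1.74 in every other library and listed at 0 in GC 3 and all 3 Combination libraries. Cox8b, the muscle form of subunit 8, stood at 8.17 and 30.6 FPKM in the same pair and was listed at 0 in the other 10 libraries. The skeletal muscle actin Acta1 stood at 348 and 937 FPKM in that pair and at most 4.80 elsewhere, and creatine kinase Ckm at 108 and 285 against at most 3.01. These muscle forms followed 2 libraries from different groups and were not called in any contrast. Their general forms were abundant everywhere: Cox6a1 ran from 320 to 608 FPKM and Cox8a from 347 to 644.

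Cox7a1, the third muscle form, was highest in a library outside that pair. It stood at 106 FPKM in Combination 1 and between 2.97 and 22.2 in the other 11 libraries. Its share of Cox7a1 plus Cox7a2 was 22.8% in Combination 1, 7.05% in GC 2, 5.58% in Control 2 and at most 4.43% elsewhere. In Combination 1 the smooth muscle genes Actg2 (269 FPKM), Myh11 (28.8) and Des (134) were high as well. The highest values of Actg2 and Myh11 in the other libraries were 73.9 and 3.78, both in GC 2, where Des was 172. Acta1 was 4.80 FPKM in Combination 1, and the brown fat marker Ucp1 was listed at 0. With the hepatocyte marker mean as a covariate Cox7a1 passed limma's test against Control in GC (3.40, adjusted p = 0.0182) and Combination (5.12, adjusted p = 0.0211). That fit called 4.83% and 1.86% of all genes higher in these comparisons. With all libraries and no covariate Cox7a1 did not pass (0.62 ± 0.91 and 0.49 ± 0.91). Hepatocyte markers set every treated library apart from Control, so the covariate fit cannot fully separate them from treatment. Without Combination 2 and 3, which leaves a single Combination library, the Cox7a1 difference from Control was 3.30.

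Cox6b2, encoding the testis form of subunit 6b, was low everywhere. It was listed at 0 in Control 1 and 3 and stood at 1.72 FPKM in Control 2. Values were 3.35, 13.3 and 5.09 in GC, 2.54, 1.76 and 5.74 in ICB, and 6.64, 1.32 and 1.29 in Combination. GC and ICB did not overlap Control and Combination did. At most 2.35% of Cox6b1 plus Cox6b2 came from it, in GC 2.

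The low-oxygen forms were lowest in Combination. Ndufa4l2 stood at 49.99, 11.006 and 10.3 FPKM in Control, 40.1, 14.96 and 35.2 in GC, 39.0, 37.2 and 67.8 in ICB, and 4.25, 3.02 and 24.3 in Combination. Combination lay below ICB without overlap (−2.54 ± 0.74, limma adjusted p = 0.0997) and overlapped Control and GC. Without Combination 3 the value against ICB was −3.36 with a limma adjusted p of 0.0281, in a fit that called 0.627% of all genes lower. Cox4i2, the form of subunit 4 known to be used at low oxygen and in lung, stood at 14.1, 1.84 and 2.76 FPKM in Control, 7.41, 2.98 and 3.46 in GC, 5.27, 7.29 and 12.9 in ICB, and 1.20, 0 and 4.53 in Combination. It too lay below ICB without overlap (−1.97 ± 0.70, limma adjusted p = 0.152).

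Other genes of the low-oxygen response, listed after these values were seen, are given beside them. Adrenomedullin (Adm) stood at 37.3, 3.22 and 9.28 FPKM in Control, 11.3, 4.90 and 9.06 in GC, 20.04, 21.4 and 41.9 in ICB and 2.21, 2.56 and 10.9 in Combination. The glucose transporter Slc2a1 stood at 281, 110 and 137 FPKM in Control, 99.7, 51.6 and 83.6 in GC, 131, 186 and 230 in ICB and 54.6, 7.56 and 135 in Combination. Of 8 such genes 0 were called by limma in any comparison with Control, and their median differences were −0.70 in GC, 0.33 in ICB and −1.10 in Combination. In Combination against ICB all 8 were negative with a median of −1.49, and 0 were called. For 6, not including Slc2a1 and Car9, all Combination libraries lay below all ICB libraries. Car9 stood at 4.84, 4.88 and 5.72 FPKM in ICB and 6.61, 0.275 and 2.21 in Combination. In GC against Control all 8 were negative, while Ndufa4l2 stood at 0.60 and Cox4i2 at −0.04. In Control 1, highest of its group for both forms, Adm and Slc2a1 were highest of their group too. Combination 1 held 0.821% of FPKM in hepatocyte markers and its Ndufa4l2 was 4.25, and Combination 2 held 17.3% and had 3.02. Combination 3 held 7.12% and had the highest Ndufa4l2 of the group, and Combination 1 was also the library with intestinal markers. The part of other tissues in these values was not tested.

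**Figure D4:**
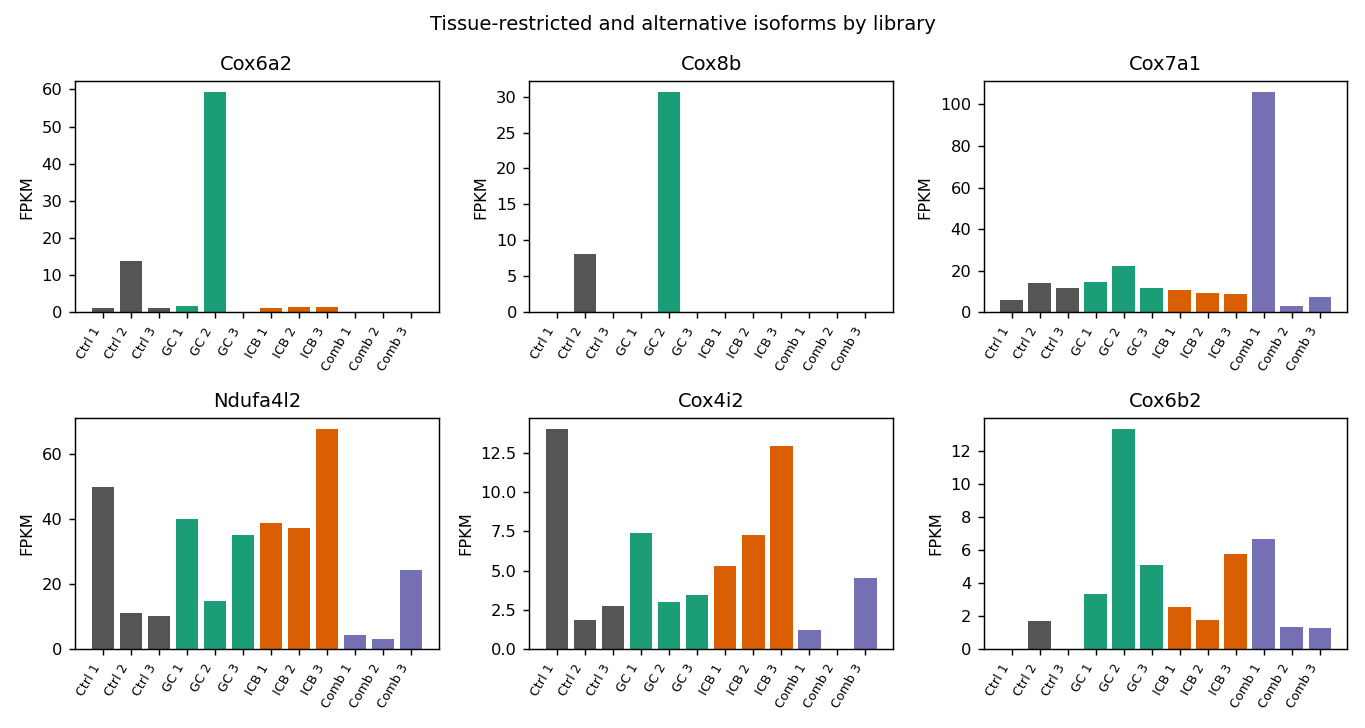
FPKM (vertical axes, each from 0 with its own range) of 6 tissue-restricted or alternative isoforms in the 12 libraries (Ctrl is Control, Comb is Combination), coloured by group. Cox6a2 and Cox8b are high in Control 2 and GC 2, Cox7a1 in Combination 1, and Ndufa4l2 and Cox4i2 are highest in Control 1 and ICB 3.

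Coding length went with the GC difference. The 81 tested subunits were split at their median coding length of 423 bases (GENCODE M21 principal transcripts, all 81 with a value). In GC against Control the 41 shorter genes had a median of 0.47 (39 positive) and the 40 longer ones 0.10 (28 positive), with a Spearman correlation of −0.67 across genes, which are not independent replicates. In ICB against Control the medians were 0.08 and −0.17 (−0.57). In Combination against Control they were 0.22 and 0.17 (−0.06). The relation with length was thus present in these genes for GC and ICB and near 0 for Combination. It had the opposite sign in Combination against GC (−0.19 and −0.03, 0.55), in Combination against ICB (0.12 and 0.33, 0.33) and in the interaction (−0.27 and 0.10, 0.68). Shared Control and Combination libraries enter these values, and FPKM is divided by transcript length by the authors. What part length itself had in these values was not tested.

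By library, each gene was centred on its mean over the 3 Control libraries, so these values are differences from Control as well. The shorter and longer subunits stood at medians of −0.36 and −0.19 in Control 1, −0.11 and −0.01 in Control 2 and 0.39 and 0.22 in Control 3. They stood at 0.45 and 0.05, 0.34 and 0.15, and 0.53 and 0.18 in GC 1, 2 and 3. In each GC and ICB library the shorter genes stood higher than the longer ones, in Control 1 and Control 2 they stood lower, and in Control 3 higher. The 7 core subunits of complex I, which include those that bind the flavin and the iron-sulfur clusters, had a median of 0.02 in GC against Control, and the 31 accessory subunits 0.36. In ICB against Control the core stood at −0.19 with 0 of 7 positive and the accessory subunits at 0.05. In Combination against ICB all 7 core subunits were positive, with a median of 0.28 against 0.22.

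**Figure D5:**
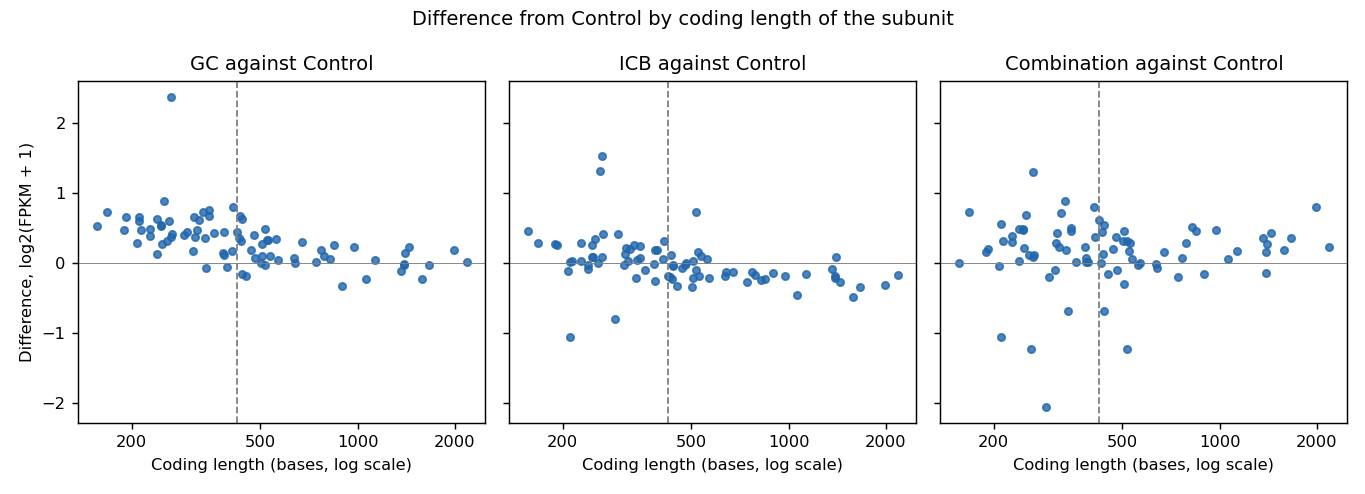
Difference from Control on the log2(FPKM + 1) scale (vertical axis) against coding length in bases (horizontal axis, log scale) for the 81 tested subunits in GC, ICB and Combination, with 1 point per gene. The dashed line marks the median length of 423 bases. Shorter genes have higher values in GC (Spearman −0.67) and ICB (−0.57), and no such slope is seen for Combination (−0.06).

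Genes that build or feed the complexes were read beside the subunits. The Ndufaf assembly factors ranged in Combination against Control from −0.56 for Ndufaf5 to 0.49 for Ndufaf3, and 0 of 7 were called by limma in any contrast. Complex IV assembly factors outside the name rule (22 tested) had medians of 0.31, 0.01 and 0.13 in GC, ICB and Combination against Control with 0 called. The 14 enzymes of the tricarboxylic acid cycle had medians of −0.09, −0.28 (0 of 14 positive) and −0.06 with 0 called, and 0.36 in Combination against ICB. Mitochondrial ribosomal proteins (26) had medians of 0.26, −0.14 and −0.06, and the 22 cytosolic ribosomal proteins −0.52, −0.05 and −1.48. For the latter all 22 were negative in Combination with an unadjusted p under 0.05, and 0 were called.

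Among the mitochondrial lists, called genes were found for pyruvate and electron carriers, all in Combination against Control. The mitochondrial pyruvate carrier subunits rose: Mpc1 stood at 9.30, 12.8 and 19.1 FPKM in Control and 29.1, 149 and 70.0 in Combination (2.27 ± 0.47, limma adjusted p = 0.0218). Mpc2 rose by 1.63 ± 0.39 (limma adjusted p = 0.0433), and Pdk2, a kinase that switches off pyruvate dehydrogenase, by 1.61 ± 0.36 (limma adjusted p = 0.0311). Etfb, part of the flavoprotein that carries electrons from fatty acid oxidation, stood at 85.0, 79.8 and 99.5 FPKM in Control and 174, 298 and 176 in Combination and rose by 1.24 ± 0.26 (limma adjusted p = 0.0218). Each of these was highest in Combination 2, the library with 17.3% of FPKM in hepatocyte markers. The 3 called genes of the list of pyruvate dehydrogenase and carriers were 3 of 17, and 10 of the 17 were negative with a median of −0.28 over the list. Etfb was 1 of 13 tested carriers and coenzyme Q genes, against a background of 3.55% called higher.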

How the data were processed

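Per the labels' protocols, stranded libraries were prepared from total RNA of tumour tissue, with Qiagen kits for both steps. The values used were FPKM as deposited by the authors, 1 value per symbol and library. Build mm10 and the tools HISAT2, HTSeq, SAMtools, cutadapt and FastQC are named, without versions, per the submitters' processing notes. The step that made FPKM, and whether strand was used, are not given in the sources used here. Groups came from the sample titles, and 0 columns were left unmapped. Whole reads were sought in low values over 66 pairs of libraries, and the fullest bin of ratios held at most 17.3% of genes, so no count model was run.

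On the log2(FPKM + 1) scale, limma 3.58.1 (R 4.3.3, empirical Bayes with an intensity trend) was run over the 12765 genes whose mean reached 1 FPKM. A single fit of all 12 libraries had 8 residual degrees of freedom, and p-values were adjusted over all genes tested (Benjamini-Hochberg, threshold 0.05). Means are given with SD and differences with SE. A gene is called where its adjusted p is under the threshold, and background shares give the percentage of all genes tested that meet the same rule. The test step was tested on simulated data.

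The genes and lists were chosen with earlier results of these data known. Genes named are the 2 largest and 2 smallest differences from Control and the 2 highest means of each complex, a set chosen for role, those below the filter, and others chosen after their values were seen: those of small unadjusted p, those with separated libraries, and those named for tissue or low oxygen. A gene that the rule took is not reported by name here. Locations and coding lengths came from GENCODE M21 (GRCm38, the build the notes call mm10), and promoters from RefSeq (GRCm38.p6), for 73 of 93 genes. Alternatives covered scaling, pseudocount (0.1 and 5), filter, trend, sample weights, groups in the fit, a replicate block, a hepatocyte covariate and left-out libraries.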

Additional observations from a re-analysis of the deposited data

How the results depend on the processing

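Counts of called genes are given first, each with the share of all 12765 genes called in the same fit in parentheses. Under the alternatives 166 counts kept to 0 and 28 did not, and 154 medians moved by less than 0.230, the pooled SD of library medians, and 13 by more. Many of the 154 could not move. The trend, the groups in the fit and the replicate block leave the differences as they are, as does leaving out a library that a comparison does not use. Quantile normalization gave 1 called gene in Combination against Control (6.72%), Atp5g2. Sample weights, whose estimation did not fully converge, gave 13 for GC against Control (11.4%), 15 for ICB against Control (19.2%), 18 for Combination against Control (52.5%), 52 for Combination against GC (54.7%), 46 for Combination against ICB (59.1%), 30 for the interaction (31.6%) and 77 for any difference among groups (78.7%). The hepatocyte covariate gave 4 for GC against Control (5.43%), Cox6b2, Cox7a1, Ndufb3 and Ndufb7, and 1, Cox7a1, in each of Combination against Control (1.95%), Combination against ICB (2.37%) and the test of any difference (3.47%). Leaving out 1 library at a time gave 0 to 1 in GC against Control, 0 to 3 in Combination against Control, 0 to 8 in Combination against GC, 0 to 3 in Combination against ICB, 0 to 2 in the interaction and 0 to 2 in the test of any difference, and 0 throughout in ICB against Control. All counts above 0 came without Combination 1 (1.43%, 24.8%, 23.6%, 16.1%, 6.36% and 14.1% in that order), except 1 in Combination against ICB without Combination 3 (2.09%), Ndufa4l2.

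Chosen after seeing the data, leaving out Combination 2 and 3 gave 1 called in GC against Control (1.99%), 2 in Combination against Control (3.49%), 1 in Combination against GC (2.04%), 1 in Combination against ICB (3.12%) and 2 in the test of any difference (3.35%), with the lone Combination library assumed to vary like the other groups. Leaving out Combination 1, Control 2 and GC 2 gave 1 in Combination against Control (11.3%), 2 in Combination against ICB (10.8%), 1 in the interaction (1.67%) and 1 in the test of any difference (8.18%).

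Medians moved under TMM factors to 0.52 in Combination against Control, 0.35 against GC, 0.48 against ICB and 0.27 in the interaction. The covariate gave 0.64 in GC, 0.21 in ICB and 0.74 in Combination against Control, 0.12 in Combination against GC and 0.53 against ICB. Medians over all genes moved in that fit too, to 0.45, 0.21, 0.38, −0.07 and 0.22 in the same order. Without Combination 2 and 3 the medians of the 91 genes were 0.52, 0.24, 0.52 and 0.29 in Combination against Control, GC and ICB and in the interaction. Of 45 gene and comparison pairs followed, 1 changed sign, Atp5g2 in Combination against Control (0.056 with the covariate). These pairs were taken for an unadjusted limma p under 0.05 in the main fit, which favours stable signs. Over all 91 genes the sign differed under some other scaling for 21, 13 and 27 in GC, ICB and Combination against Control. The counts were 47 in Combination against GC, 28 in Combination against ICB and 31 in the interaction. The cause of these moves was not tested.

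The replicate numbers of the titles showed no clear pairing of the libraries: correlations of same-numbered deviations ran from −0.236 to 0.416 over 18 pairs (median 0.0346). With a replicate block by these numbers 0 genes were called in each of the 7 results. The description field of the labels numbers some libraries otherwise, and a pairing by those numbers was not examined. Depth is unknown, so counting error could not be given.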
